A study of Danaus plexippus with 32 samples.

Results

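Scaffold DPSCF300001 is a stretch of assembly v3 of the genome of the monarch butterfly, Danaus plexippus, and its genes were followed here in male and female brains. Members were the genes whose locus lies on this scaffold and whose level reached an FPKM (fragments scaled to transcript length and to mapped reads) of 3 in at least 1 wild-type library. Of 447 genes on the scaffold, 313 were members and 133 stayed under that level, 26 of them at 0 in every wild-type library, and 1 further gene of the scaffold at that level was left out. The members lie between positions 67981 and 6239289 of the scaffold, and 12 of them overlap another locus. They are part of 10412 expressed genes, of 15130 in all, and 10098 expressed genes off the scaffold served as the comparison. The scaffold itself was chosen by measured values, since it holds more genes that differ between the sexes than any other. That choice rests on a count and not on a share, and the scaffold also holds the most expressed genes. Its male-to-female differences are therefore described without a test.

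The 32 libraries came from adult brains dissected free of the eye photoreceptors, each library pooling 3 brains of 1 sex. The butterflies had lived for at least 7 days under a long photoperiod, with light for 15 h and dark for 9 h, at 25 °C. Wild-type animals (WT) gave 1 male and 1 female library at each of 8 times, ZT1 to ZT22 in steps of 3 h, where ZT is the number of hours since lights on, and Cry2 knockouts (Cry2KO) and Clk knockouts (ClkKO) gave 1 of each sex at ZT4, ZT10, ZT16 and ZT22. In the labels replicate 1 is always the male and replicate 2 the female library, so that sex and replicate number cannot be told apart, and sequencing runs are not given in the sources used here. The same is true of the alleles and of the number of founders of the knockout stocks.

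In moths and butterflies the male is the sex with a pair of Z chromosomes, and the female carries a Z and a W. Genes on the Z are therefore present in more copies in males, and butterflies are known to balance their output between the sexes to a large extent. The files do not assign scaffolds to chromosomes, so that the chromosome of the members was not part of the data. CRY2 is the main transcriptional repressor of the monarch clock, and CLK is one of the activators that it represses. No sequences of the members were in the tables used here, and the members are described by identifier, place and level.

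Each library held between 2848069 and 4456321 reads on genes, as recovered from the FPKM and their intervals. The median member was covered by 108 reads per library and the median comparison gene by 109, and 106 members had a median under 50 reads. No library was a copy of another. The 15 marker genes of neurons, glia, pigment cells and cuticle were above 0 in every library, but the study had picked these genes as rhythmic on the same samples. Summed neuronal markers overlapped between the sexes in each genotype, with 365 to 459 FPKM in WT males and 303 to 428 in WT females. Cry2 mRNA (DPOGS208079) was at 22.1 to 23.9 FPKM in Cry2KO and 18.5 to 34.6 in WT, and its level gives no check of a knockout whose lesion leaves the mRNA in place. In such whole-brain samples, fewer cells of a type and less RNA per cell cannot be told apart.

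Members were, as a group, slightly higher in males than the other genes were, in all 3 genotypes. The median member differed between male and female WT libraries by 0.11 on the log2(FPKM + 1) scale, against 0.01 for the other expressed genes, a surplus of 0.099 or 1.07-fold. In Cry2KO the medians were 0.07 and 0.01, a surplus of 0.066, and in ClkKO both medians lay below 0, at -0.05 for members and -0.13 for other genes, which left a surplus of 0.078. Taken pair by pair, the surplus was 0.072 ± 0.037 in WT (mean and SD, 8 pairs), 0.060 ± 0.025 in Cry2KO and 0.079 ± 0.027 in ClkKO (4 pairs each). The sign of the members' median in ClkKO depended on this general shift, and it turned to 0.06 with median-of-ratios scaling. Summed glial markers moved with that shift, at 338 to 548 FPKM in ClkKO males and 501 to 621 in ClkKO females. The medians of the summed neuronal and cuticle markers were also lower in ClkKO males. That of photoreceptors and pigment cells was higher in ClkKO males. The ranges of all these sums overlapped between the sexes in ClkKO, and the part of any marker list in the shift was not tested.

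The surplus was seen in 8 of 8 WT pairs, 4 of 4 Cry2KO pairs and 4 of 4 ClkKO pairs. It was smallest in Cry2KO at ZT22, at 0.02, and largest in WT at ZT22, at 0.15, where the other genes also had their largest WT difference, 0.08. In WT at ZT19 the members' median was 0 and that of the other genes -0.05. The ClkKO pair at ZT4 had the lowest medians, -0.18 for members and -0.25 for other genes. Leaving out each library in turn moved the WT members' median between 0.08 and 0.12.

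**Figure D1:**
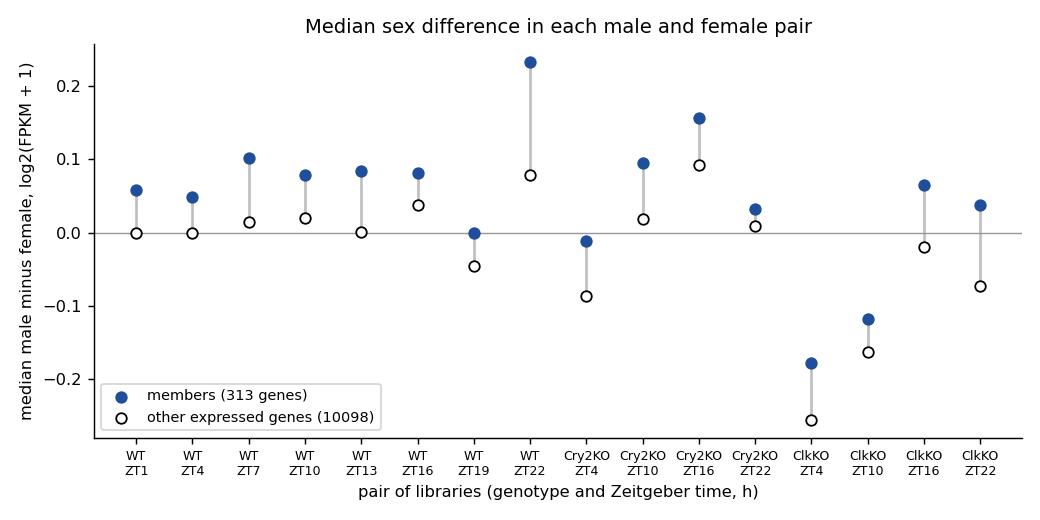
Median male-minus-female difference, in log2(FPKM + 1), of the 313 members (filled) and of 10098 other expressed genes (open) in each of the 16 pairs of a male and a female library, by genotype and Zeitgeber time in h. The filled point lies above the open one in every pair, by 0.02 to 0.15, while both move up and down together between pairs.

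Most members lay above the median of the other genes, and the upper part of their differences was moved more than the lower part. In WT, 208 members (66.5%) lay above the median of the other genes, in Cry2KO 190 (60.7%) and in ClkKO 213 (68.1%). Members that lay above it in all 3 genotypes numbered 125, or 39.9%, against 15.7% of other genes, and 43 members (13.7%) lay below it in all 3, against 15.8%. The middle of the members' WT differences ran from -0.05 to 0.24 (quartiles), and that of the other genes from -0.09 to 0.12. In Cry2KO the quartiles were -0.07 and 0.19 against -0.08 and 0.09, and in ClkKO -0.17 and 0.09 against -0.22 and -0.04. The mark that the highest 10% of other genes exceed was exceeded by 22.7% of members in WT, 26.2% in Cry2KO and 25.2% in ClkKO. Under the mark of their lowest 10% lay 11.8%, 9.90% and 10.2% of members. Few members lay 1 or more from the median of the other genes. In WT 0 lay that far to the male side and 3 to the female side, against 0.277% and 0.594% of other genes. In Cry2KO these counts were 0 and 1 (0.604% and 0.921% of other genes), and in ClkKO 4 and 1 (0.842% and 0.604%).

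The shift was present among members of high and of low level in WT. When all expressed genes were cut into 4 equal classes by their mean WT FPKM, the surplus of members over other genes in WT was 0.10, 0.13, 0.09 and 0.08 from the lowest to the highest class. In Cry2KO it was 0.02, 0.03, 0.10 and 0.07, and in ClkKO 0.05, 0.06, 0.10 and 0.07, so that the 2 lower classes had the smaller surplus in both knockouts. Across the 313 members the WT difference had no relation to level (Spearman's rho -0.01) and a weak negative one to the span of the locus (rho -0.25). Among members the sex differences of WT and Cry2KO had a Pearson's r of 0.43 (rho 0.40), those of WT and ClkKO 0.47 (rho 0.45) and those of Cry2KO and ClkKO 0.31 (rho 0.51). The same values for other genes were 0.12, 0.12 and 0.09 (rho 0.11, 0.15 and 0.14). These correlations run over genes of the same libraries, which are not independent replicates, and no library is shared between genotypes.

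The members were somewhat less expressed than other genes in both sexes. In WT males the median member was at 15.7 ± 0.49 FPKM (SD, n = 8 libraries) and the median other gene at 17.2 ± 0.41, a ratio of 0.912 ± 0.033. In WT females the values were 14.4 ± 0.76 and 17.0 ± 0.52, a ratio of 0.844 ± 0.034. The ratio was 0.872 ± 0.046 in Cry2KO males and 0.860 ± 0.032 in Cry2KO females (n = 4 each), and 0.908 ± 0.032 and 0.844 ± 0.011 in ClkKO. The male and female ratios thus overlapped in Cry2KO and in WT, from 0.861 to 0.956 in WT males against 0.799 to 0.903 in WT females, and not in ClkKO.

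Along the scaffold the shift was broad rather than held by a single stretch. In 13 windows of 500 kb, with 9 to 46 members each, the median member lay above the other genes in 12 windows in every genotype, and in 11 windows in all 3. The exceptions were the window from 4000001 to 4500000 in WT, at -0.03, and the last window in both knockouts, at -0.03 in Cry2KO and -0.07 in ClkKO. That last window, with 12 members, had the highest WT median, 0.25. The window from 3500001 to 4000000 held 19 members and was high in each genotype, at 0.17 in WT, 0.14 in Cry2KO and 0.25 in ClkKO. Neighbouring members resembled each other weakly (rho 0.10 in WT, 0.19 in Cry2KO and 0.19 in ClkKO over 312 neighbouring pairs), against 0.16, 0.06 and 0.07 for neighbours elsewhere.

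**Figure D2:**
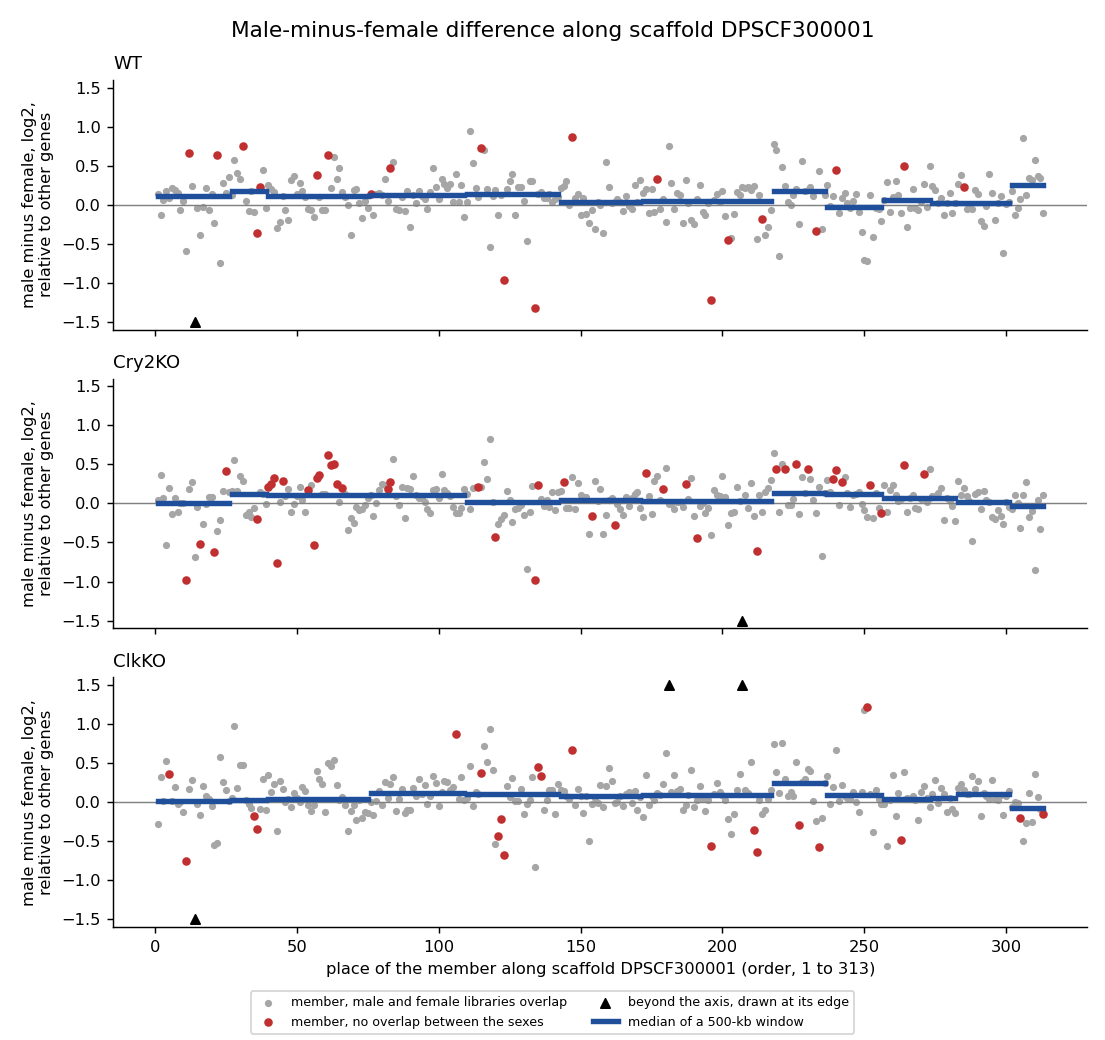
Male-minus-female difference of each member, in log2(FPKM + 1) relative to the median of other expressed genes, by the member's place along the scaffold in WT, Cry2KO and ClkKO. Red points are members without overlap between male and female libraries, triangles lie beyond the axis, and blue bars are medians of 500-kb windows, which lie above 0 in 12 of 13 windows in each genotype.

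Other scaffolds showed shifts of this size, but few showed them in every genotype. Among 174 scaffolds with at least 20 expressed genes, DPSCF300001 ranked 4 by its median in WT, 6 in Cry2KO and 5 in ClkKO. By the lowest of the 3 medians it ranked 3, after DPSCF300012, with 64 expressed genes and medians of 0.15, 0.12 and 0.15, and DPSCF300005, with 63 genes and medians of 0.08, 0.08 and 0.09. The medians of the other scaffolds had an SD of 0.05 in WT, 0.03 in Cry2KO and 0.04 in ClkKO, and 22 of them lay above 0 in all 3 genotypes. By the share of genes higher in every male library than in any female library, DPSCF300001 ranked 5 in WT, 7 in Cry2KO and 14 in ClkKO. Its shares were 4.47%, 9.90% and 2.24%, against 10.9%, 18.8% and 10.9% on DPSCF300012 and 7.94%, 14.3% and 4.76% on DPSCF300005.

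**Figure D3:**
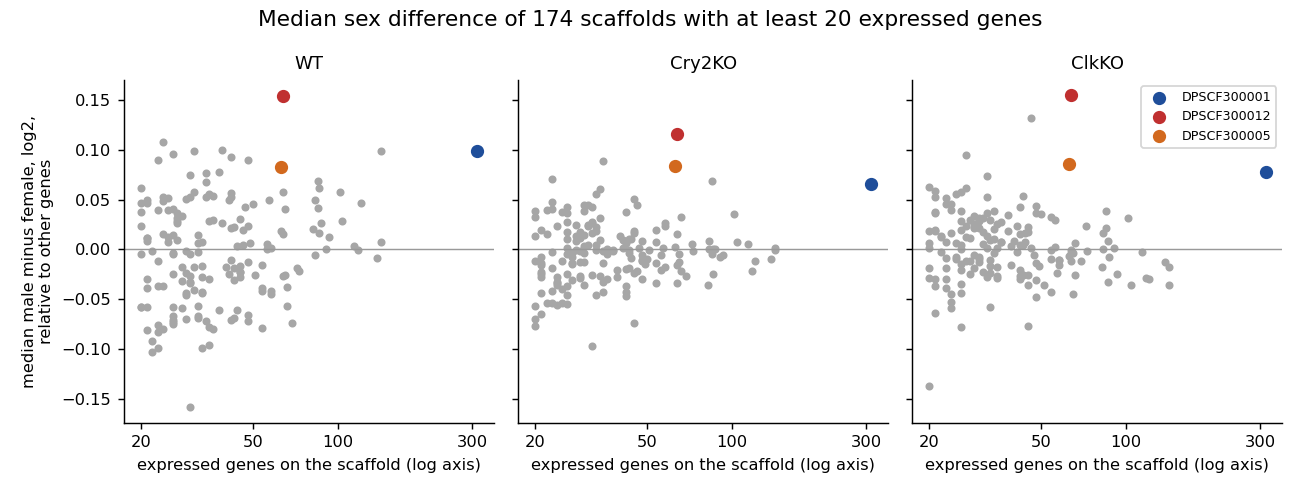
Median male-minus-female difference of each of 174 scaffolds, in log2(FPKM + 1) relative to other genes, against its number of expressed genes (log axis), in WT, Cry2KO and ClkKO. DPSCF300001, with 313 members the scaffold with the most expressed genes, lies at 0.10, 0.07 and 0.08, and DPSCF300012 lies above it in each genotype.

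A smaller set of members had no overlap between the sexes. In WT, 14 members were higher in every male library than in any female library, 4.47% of members, where 0.682% of all expressed genes were, and 7 were lower (2.24%), where 0.394% were. In Cry2KO 31 were higher (9.90%, background 2.54%) and 13 lower (4.15%, background 1.91%). In ClkKO 7 were higher (2.24%, background 0.403%) and 14 lower (4.47%, background 3.83%). With median-of-ratios scaling, which removes the general shift, the ClkKO split became 45 higher (background 2.40%) and 14 lower (background 2.51%). Without the ClkKO male library at ZT4 it was 35 (background 1.70%) and 15 (background 4.19%). Without the ClkKO female at ZT4 or the male at ZT16, 30 members (9.58%) were lower, a share below that of all expressed genes, 13.7% and 10.1%. The number higher was 12 without the ClkKO female at ZT4 (background 0.624%) and 11 without that at ZT22 (background 0.759%). In Cry2KO it was 52 without the male at ZT4, 16.6% of members, where the background rose to 6.66%. WT has 8 libraries per sex and the knockouts 4, which makes non-overlap rarer in WT. At the 4 times shared by all genotypes, 44 WT members were higher and 14 lower in males, where 5.64% and 2.27% of all expressed genes were.

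Of all 313 members, with or without overlap, 106 had a median under 50 reads. That share was lower in the male-high lists without overlap of WT and Cry2KO, at 7.14% and 9.68%. It was higher in their female-high lists, at 42.9% and 46.2%, which rest on 3 and 6 such members. Whether any list differed in depth from all members was not tested. The 14 male-high members of WT differed by 0.16 to 0.88 (log2, median 0.49), and 1 of them had fewer than 50 reads. The 7 female-high ones differed by -0.18 to -1.31 (median -0.44), and 3 of them had fewer than 50 reads. In Cry2KO 3 of 31 male-high and 6 of 13 female-high members had fewer than 50 reads, and in ClkKO 2 of 7 and 4 of 14, the same share of 28.6%. The male-high differences reached 0.63 in Cry2KO and 1.09 in ClkKO. Of the 14 male-high members of WT, 5 (35.7%) were also among the 31 of Cry2KO, of which they are 16.1%. With ClkKO, WT shared 2 members, which are 14.3% of its list and 28.6% of the ClkKO list. How often male-high genes recur between 2 genotypes among all expressed genes was not counted, so that no excess is read from these shares. No member was without overlap and male-high in all 3 genotypes, where 0.0576% of expressed genes were, and 1 member was female-high in all 3, where 0.134% were. In Cry2KO, where 2.54% of all expressed genes were male-high, 12 of the 31 male-high members lay in the window from 1000001 to 1500000. That window holds 36 members and was picked after its values were seen. It held 2 male-high members in WT and 0 in ClkKO. Its Cry2KO median, 0.107, was below the 0.136 of the window from 3500001 to 4000000.

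The 1 member that was female-high without overlap in all 3 genotypes was also the most abundant gene of the scaffold. DPOGS206997 (896296 to 902682) had a mean WT level of 7270 FPKM and a median of 10302 reads per library. In WT it ranged from 6170.2 to 6837 FPKM in males (median 6312) and from 7538 to 8914 in females (median 8119). In Cry2KO the male libraries lay between 5352 and 6015 FPKM and the female ones between 6181 and 6568, and in ClkKO they lay between 5966 and 6332 and between 7286 and 9220. Females were thus higher in 16 of 16 pairs, by 0.35 ± 0.04 in WT, 0.19 ± 0.10 in Cry2KO and 0.47 ± 0.09 in ClkKO (log2, SE). The next most abundant member, DPOGS207114 (3295831 to 3297644, mean WT level 935 FPKM), lay on the same side by less, at -0.12 ± 0.06 in WT, -0.11 ± 0.06 in Cry2KO and -0.25 ± 0.08 in ClkKO, and its sexes overlapped in each. The ClkKO values of both members include the general shift there, with the median other gene at -0.13.

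DPOGS206864 (2544915 to 2547760) was the abundant member with the largest male surplus. In WT males it ranged from 742 to 1018 FPKM (median 851) and in WT females from 381 to 536 (median 485), a difference of 0.88 ± 0.08. The sexes did not overlap, and the male library was the higher one in 8 of 8 pairs. In Cry2KO the male libraries lay between 405 and 506 FPKM and the female ones between 329 and 460, a difference of 0.35 ± 0.08, with an overlap although males were higher in each pair. In ClkKO males lay between 496 and 740 FPKM and females between 364 and 484, a difference of 0.54 ± 0.06 without overlap.

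**Figure D4:**
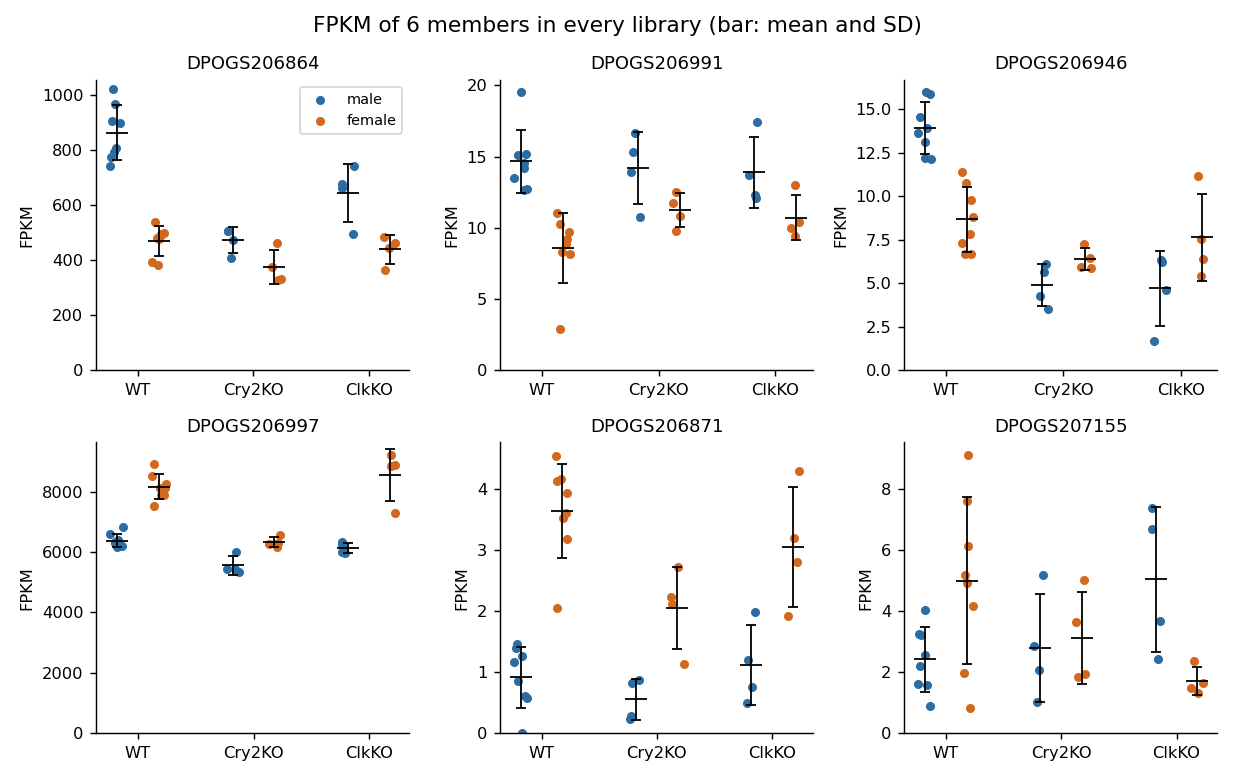
FPKM of 6 members in every library, males in blue and females in orange, by genotype, with the mean and SD of each group drawn as a bar. DPOGS206864 and DPOGS206991 are male-high in WT, DPOGS206997 and DPOGS206871 female-high in each genotype, and DPOGS206946 and DPOGS207155 change sides between genotypes.

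Of the 6 members with the largest male surplus in WT, 3 had male libraries above female ones in 8 of 8 pairs. Beside DPOGS206864 these were DPOGS206991 (834986 to 836103), at 12.6 to 19.6 FPKM in males and 2.93 to 11.0 in females (0.77 ± 0.18), and DPOGS207129 (3526366 to 3526941), at 94.3 to 158 and 31.9 to 98.2 (0.79 ± 0.20). The 2.93 FPKM of DPOGS206991 was the WT female library at ZT22 alone, and the other WT females lay at 8.15 to 11.0. The surplus of DPOGS206991 was 0.30 ± 0.13 in Cry2KO and 0.34 ± 0.09 in ClkKO, and that of DPOGS207129 was 0.66 ± 0.39 and 0.61 ± 0.28. DPOGS206884 (2041134 to 2041723), with 0.95 ± 0.20 in WT and 7 of 8 pairs, was at -0.06 ± 0.33 in Cry2KO. DPOGS206769 and DPOGS207103 rested on few reads. DPOGS207103 is a locus of 110 bp inside that of DPOGS206842, and its WT value of 0.77 came from a single library, the male one at ZT4, with every other WT library at 0.

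The 6 members with the largest female surplus in WT were all read at low depth, with a median of 0.5 to 38.3 reads per library. DPOGS206871 (2314364 to 2317184) was the most regular of them, at 0 to 1.45 FPKM in WT males and 2.06 to 4.54 in WT females, a difference of -1.31 ± 0.20 from a median of 6.5 reads per library. It was at -0.98 ± 0.26 in Cry2KO and -0.96 ± 0.22 in ClkKO, female-high in 16 of 16 pairs. DPOGS207116 (3319728 to 3327400) and DPOGS207059 (2234732 to 2236512) were also without overlap in WT, at -1.21 ± 0.17 and -0.96 ± 0.26, and again in ClkKO, at -0.69 ± 0.23 and -0.81 ± 0.14. DPOGS206974, which at -2.74 ± 0.64 had the largest difference, had a median of 0.5 reads per library, although these gave a mean WT level of 12.96 FPKM at a locus of 437 bp, and DPOGS206980 (-0.73 ± 0.32) had 1.5.

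DPOGS207155 (4340915 to 4343365) was female-high in WT, at -0.70 ± 0.26 with females higher in 7 of 8 pairs, and male-high in ClkKO. Its ClkKO male libraries lay at 7.39, 3.67, 6.69 and 2.43 FPKM at ZT4, ZT10, ZT16 and ZT22 and its female ones at 1.33, 1.62, 2.36 and 1.47, a difference of 1.09 ± 0.25 without overlap. The adjacent member DPOGS207154 (4335033 to 4340812), chosen after its values were seen, had nearly the same values, -0.69 ± 0.26 in WT and 1.05 ± 0.31 in ClkKO.

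Whether the sexes differed by a different amount in the knockouts was asked with a sex-by-genotype interaction. It is not independent of the choice of the scaffold, since it compares the same male-minus-female values. DPOGS206864 and DPOGS207155, given below, were named for extreme WT differences, so that a less extreme value in a knockout can follow from that choice. At the times that all genotypes share, the surplus of the members over other genes was 0.083 in WT, 0.066 in Cry2KO and 0.078 in ClkKO. No member and no other gene passed an adjusted p of 0.05 (limma, Benjamini-Hochberg over 10412 genes; 0 called, background 0%) in Cry2KO or in ClkKO. At an unadjusted p under 0.05 stood 32 members in Cry2KO (10.2%, against 7.12% of all genes) and 45 in ClkKO (14.4%, against 12.3%), and the lowest adjusted p of a member was 0.547 and 0.402. For DPOGS206864 the surplus was smaller than in WT by 0.45 ± 0.12 (SE) in Cry2KO, with an adjusted p of 0.642 by limma, and for DPOGS207155 it was larger by 1.72 ± 0.55 in ClkKO, with an adjusted p of 0.402. Neither difference between genotypes held up over all genes.

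The sex difference did not vary detectably with time of day in WT. In a model with separate 24-h waves for males and females, 0 members and 0 of all genes passed an adjusted p of 0.05 by limma. At an unadjusted p under 0.05 stood 5 members (1.60%), against 3.04% of all genes, and the lowest adjusted p of a member was 0.979.

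A smaller share of members than of all genes differed in level between Cry2KO and WT. At the 4 shared times, 16 members (5.11%) passed an adjusted p of 0.05 in limma, where 9.51% of all genes did, 3 of them higher (background 1.05%) and 13 lower (background 8.46%) in Cry2KO. At an unadjusted p under 0.05 stood 61 members (19.5%), where 26.6% of all genes did. The median member differed by -0.06 and the median other gene by -0.08. The split rests on this general shift: with median-of-ratios scaling 5 members were higher and 2 lower (2.24% in all, background 5.27%), and with quantile normalization 6 and 4 (3.19%, background 5.59%). With a block for sex, which the main fit lacks, the count was 24 (7.67%, background 10.3%). Without the block, sex differences count as residual spread, and the scaffold was chosen for such differences. The smaller share is therefore not independent of that choice, and how much of it follows from the choice was not tested. It was 29 (9.27%, background 15.6%) without the WT female library at ZT22, and 8 to 10 (background 5.99% to 7.24%) without the WT female at ZT4, the WT male at ZT10, or the Cry2KO male at ZT4 or ZT22 or female at ZT10, ZT16 or ZT22. The lower members included DPOGS206946 and DPOGS206906, and the higher ones CG9518.

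DPOGS206946 (390571 to 394598) fell, and its male and female libraries changed order. In WT it was at 12.1 to 16.0 FPKM in males and 6.67 to 11.4 in females, without overlap, and in Cry2KO at 3.53 to 6.11 and 5.87 to 7.25. DPOGS206946 was lower in Cry2KO by 0.82 ± 0.19 (log2, SE, adjusted p = 0.0171 by limma), and this call held under each alternative. Its level was not called in ClkKO, but there too it was low, at 1.67 to 6.32 FPKM in males and 5.40 to 11.2 in females. Its sex difference of 0.64 ± 0.11 in WT stood against -0.34 ± 0.11 in Cry2KO, an interaction of -1.07 ± 0.23 with an adjusted p of 0.642 by limma. DPOGS206906 (1668614 to 1670144) was at 59.3 to 79.1 FPKM in the 8 WT libraries of these times and at 42.5 to 53.9 in Cry2KO, without overlap, and fell by 0.45 ± 0.07 (adjusted p = 0.00188 by limma). It was also lower in ClkKO, by 0.27 ± 0.07 at 50.2 to 68.8 FPKM (adjusted p = 0.0431 by limma), a call lost with quantile normalization, with median-of-ratios scaling and without any of 12 of 16 libraries.

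Among the other members named in Cry2KO, DPOGS206864 was at 477 to 967 FPKM in WT and 329 to 506 in Cry2KO, and fell by 0.63 ± 0.18 (adjusted p = 0.0447 by limma). This call was lost with quantile normalization, with median-of-ratios scaling and without any of 11 of 16 libraries. DPOGS206967 (165490 to 168103) fell by 0.78 ± 0.23, from 5.74 to 13.3 FPKM in WT to 3.03 to 13.5 in Cry2KO, a call lost in 5 of 7 other settings, both scalings and the block among them, and without any of 14 of 16 libraries, and DPOGS207160 (4505835 to 4514013) by 0.37 ± 0.09. CG13366, named as are all symbols here after the fly gene that the study's tables pair with it, fell by 0.23 ± 0.06 (DPOGS207077). The calls of DPOGS207160 and CG13366 were also lost under both scalings. DPOGS206971 (205658 to 206512) rose by 0.24 ± 0.07, from 35.6 to 49.2 FPKM in WT to 44.7 to 58.9, a call kept under both scalings and lost without any of 12 of 16 libraries or without the variance trend. The rise of DPOGS206878 by 1.39 ± 0.40 rested on a median of 1 read per library and was lost with a pseudocount of 0.1.

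In ClkKO the share of members with a changed level was that of all genes. There 11 members (3.51%) passed, where 3.46% of all genes did, 1 higher (background 0.499%) and 10 lower (background 2.96%), and with median-of-ratios scaling 2 were higher and 3 lower (1.60% in all, background 2.82%). At an unadjusted p under 0.05 stood 63 members (20.1%), where 19.9% of all genes did. The count rested on single libraries. It was 0 without the WT female library at ZT4 (background 1.76%), 20 without that at ZT22 (6.39%, background 5.004%), and at 10 or 11 only without the WT female at ZT16, the WT male at ZT22 or the ClkKO female at ZT10, with 2 to 7 for the 11 remaining libraries (background 1.498% to 2.87%). DPOGS207141 (3877489 to 3878479), the 1 higher member, was at 212 to 310 FPKM in WT and 293 to 415 in ClkKO and rose by 0.49 ± 0.10 (adjusted p = 0.0241 by limma). DPOGS207112 (3274428 to 3279308) was at 14.6 to 19.8 FPKM in WT and 11.1 to 14.1 in ClkKO, without overlap, and fell by 0.38 ± 0.08 (adjusted p = 0.022 by limma). DPOGS206967 fell by 0.85 ± 0.20, DPOGS206780 by 0.84 ± 0.19 from 4.2 reads per library, DPOGS206860 by 0.35 ± 0.09 and DPOGS206775 by 0.33 ± 0.08, and of these the call of DPOGS206780 did not depend on scaling. Without single libraries the calls of these members were lost in 11, 8, 13 and 9 of 16 cases, in the same order. Those of DPOGS207141 and DPOGS207112 were lost in 1 and 2. DPOGS206967 and DPOGS206906 were the 2 members called lower in both knockouts, which were compared with the same WT libraries.

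The share of rhythmic members was close to that of all genes. In WT, 3 members (0.958%) had a 24-h wave with an adjusted p of 0.05 or less by limma and a highest time mean at least 1.3 times the lowest, where 0.807% of all genes did. At an unadjusted p under 0.05 stood 29 members (9.27%), where 8.21% of all genes did. The study used other methods on the same WT libraries and counted more genes as rhythmic than this fit did. CG9518 (DPOGS207058, 2208085 to 2227201), in the fly an enzyme of the glucose-methanol-choline oxidoreductase family, cycled most, from 5.41 ± 1.26 FPKM (SD of 2 libraries) at ZT4 to 0.779 ± 0.248 at ZT16, a ratio of 6.94 (adjusted p = 3.77e-05 by limma). In Cry2KO it stayed between 4.47 ± 0.71 and 6.81 ± 1.71 FPKM, higher than WT by 1.02 ± 0.24 (adjusted p = 0.0202 by limma), and in ClkKO between 1.48 ± 0.26 and 2.26 ± 0.90. Both its rhythm and its rise held under each alternative run for it.

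The other rhythms were shallow and rested on single libraries. Mhcl (DPOGS207000, 944011 to 1001834), an unconventional myosin heavy chain in the fly, ranged from 10.2 ± 0.30 FPKM at ZT16 to 14.3 ± 0.08 at ZT4 (adjusted p = 0.0354 by limma). Without single libraries its call was lost in 13 of 16 cases. CG7879 (DPOGS207088, 2815121 to 2818439) ranged from 10.1 ± 0.53 FPKM at ZT10 to 15.2 ± 1.23 at ZT22 (adjusted p = 0.0323 by limma), and its call was lost in 11 of 16. When time was entered as a factor, 1 member passed, CG9518 (background 0.355%).

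**Figure D5:**
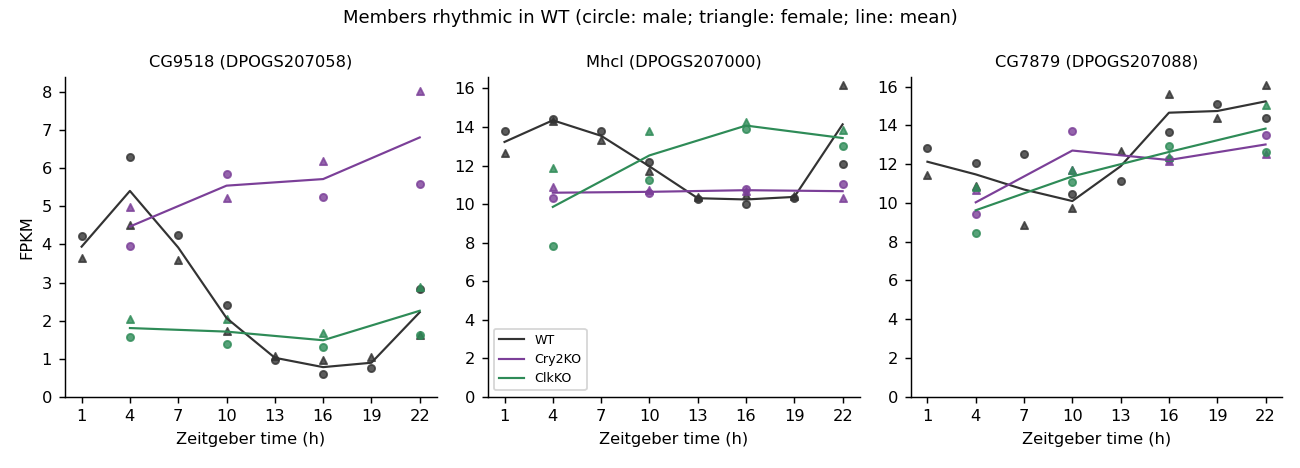
FPKM of CG9518, Mhcl and CG7879 against Zeitgeber time in h, with circles for male and triangles for female libraries and lines through their means, in WT, Cry2KO and ClkKO. CG9518 falls from 5.41 at ZT4 to 0.779 at ZT16 in WT and lies between 4.47 and 6.81 in Cry2KO at every time.

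The remaining members with a fly symbol mostly had small sex differences. Their symbols come from the study's tables of genes that it counted as rhythmic, although the fit used here called none of them. Fhos (DPOGS207157, 4375928 to 4392885), a formin that assembles actin filaments in the fly, was higher in males by 0.14 ± 0.06 in WT and by 0.24 ± 0.10 in Cry2KO, where its male libraries, at 41.7 to 44.5 FPKM, did not overlap the female ones, at 29.1 to 40.9. In ClkKO it was at -0.03 ± 0.07, where the median other gene was at -0.13. The ClkKO values of the single members below are likewise not relative to that median. The gene gd (DPOGS207003, 1037043 to 1045754), a serine protease of dorsal-ventral patterning in the fly embryo, was lower in Cry2KO males, at 1.57 to 2.70 FPKM against 3.62 to 5.30 in females (-0.75 ± 0.18), and overlapped in WT (-0.29 ± 0.20) and in ClkKO (-0.50 ± 0.51). The gene robl (DPOGS207222, 6231407 to 6232514), a light chain of the dynein motor, was at 0.35 ± 0.09 in WT, -0.32 ± 0.13 in Cry2KO and -0.22 ± 0.23 in ClkKO from a median of 11.5 reads. CG45065 (DPOGS207057), next to CG9518 on the scaffold, was at -0.12 ± 0.12 in WT and without overlap in ClkKO, at -0.56 ± 0.12. CG9518 itself was without overlap in ClkKO, at -0.34 ± 0.11.

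For bi (DPOGS206924), a T-box transcription factor of eye and wing development in the fly, the sexes overlapped in each genotype, with 52.1 to 65.4 FPKM in WT males and 50.2 to 113 in WT females. Snap29 (DPOGS206893), a SNARE protein of membrane fusion, was at 0.05 ± 0.07 in WT, -0.03 ± 0.06 in Cry2KO and 0.06 ± 0.07 in ClkKO. CG7550 (DPOGS207212) was at 0.19 ± 0.06, -0.06 ± 0.13 and -0.19 ± 0.08, and CG7518 (DPOGS206850) at 0.05 ± 0.10, 0.16 ± 0.10 and -0.24 ± 0.12. The ClkKO values stand beside a median of -0.13 for other genes. Over the WT day CG7518 ran from 101 ± 11.7 FPKM (SD of 2 libraries) at ZT7 to 187 ± 5.74 at ZT22.

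The genes next to the level that defines members had the following values. The member with the lowest highest WT level, DPOGS207105, reached 3.02 FPKM and had a WT difference of 0.29 from a median of 0 reads, and the gene of the scaffold just below, DPOGS206944, reached 2.90 FPKM and had a WT difference of 0.26. The next members inside, DPOGS207178 and DPOGS207174, were at 0.51 and -0.01 in WT and at 0.45 and 0.03 in Cry2KO. The next genes outside, DPOGS206975 and DPOGS207176, were at 0.26 and 0.01 in WT and at 0.05 and 0.10 in Cry2KO.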

How the data were processed

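RNA was measured in 32 brain libraries of Danaus plexippus, 1 file each. The authors called bases with CASAVA 1.8.2, mapped reads to assembly v3 with TopHat2, keeping 1 location per read, and deposited FPKM per gene from Cufflinks with a 95% interval; depth was recovered from that interval, and recovered values under 30 reads lay within 0.05 of a whole read in 82.5% of cases, so that no count test was used. Which 16 libraries shared a run is not given in the sources used here. Groups came from the labels. The members, lists and rules were chosen with earlier results of these data known. Named are the 6 members with the largest and the 6 with the smallest WT difference, members with a symbol in the study's tables, up to 5 called members per direction and test, the genes next to the threshold and the 2 most abundant members.

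Values were log2(FPKM + 1), for genes with an FPKM of 3 in any WT library. Male-minus-female differences were averaged over pairs of 1 time, and their SE came from a limma fit. Those of single members are not relative to the median of other genes unless so stated. Interactions, levels (time as a factor) and rhythms (24-h cosine and sine) were tested with limma 3.58.1 in R 4.3.3, with a trend of variance on level, over 10412 genes with Benjamini-Hochberg adjustment, after tests on simulated data. Fold changes on this scale understate those of low genes. Replicates are pools of 3 brains. Alternatives were a pseudocount of 0.1, an FPKM minimum of 10 or none, quantile and median-of-ratios scaling, no variance trend, a replicate block, time as a factor and each library left out. Python 3.11.15 was used for the descriptions.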

Additional observations from a re-analysis of the deposited data

Results flagged for a closer look

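In 3 members the sexes differed in opposite directions in every pair of 2 genotypes. DPOGS206946 was male-high in every WT pair, by 0.644 on average (log2), and female-high in every Cry2KO pair, at -0.3426, an interaction with an adjusted p of 0.642 by limma. DPOGS206998 (915107 to 921292) was male-high in every WT and every Cry2KO pair, by 0.2351 and 0.1481, and female-high in every ClkKO pair, at -0.219; its interaction in ClkKO was -0.53 ± 0.15, with an adjusted p of 0.402 by limma, and its value relative to other genes in ClkKO was -0.09. The difference between Cry2KO and ClkKO was not tested. DPOGS207011 (1148478 to 1149013) was male-high in every Cry2KO pair, by 0.2464, and female-high in every ClkKO pair, at -0.243, a difference that was not tested either. The median other gene was at -0.13 in ClkKO.

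A single pair stood apart from the others of its genotype in 16 of 117 sets of pair differences examined. The rule flags about 1 in 20 sets of independent, normally spread values, a rate that does not apply here. These sets share libraries, and part of the genes were named for extreme WT differences, so that no excess is read from the count. In WT at ZT22 the surplus of the members over other genes was 0.1542, and Mhcl (DPOGS207000) was at -0.3898, bi (DPOGS206924) at -0.8282, DPOGS207105 at 2.006 and DPOGS207114 at -0.4875. In WT at ZT19 DPOGS206971 was at -0.5538, gd (DPOGS207003) at -1.554 and DPOGS206864 at 1.379. In WT at ZT4 DPOGS207103 was at 6.16 and DPOGS207129 at 2.269. In Cry2KO at ZT16 DPOGS206884 was at 1.149, CG45065 (DPOGS207057) at -0.6676 and Fhos (DPOGS207157) at 0.5624. In ClkKO DPOGS207059 was at -0.374 at ZT16, and DPOGS207103 at 5.593 and DPOGS206769 at -2.251 at ZT4. The values of DPOGS207103 and DPOGS207105 came from loci with a median of 0 reads.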

How the results depend on the processing

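The surplus of the members over other genes kept its direction in each genotype under each alternative, from 0.05 (no filter on level) to 0.11 (pseudocount of 0.1) in WT. Restricted to genes with at least 50 reads, an alternative chosen after seeing the data, it was 0.08, 0.08 and 0.08 in WT, Cry2KO and ClkKO. The ClkKO median of the members itself moved from -0.05 to 0.0658 with quantile normalization, 0.0646 with median-of-ratios scaling and 0.078 relative to the other genes, and without single libraries it lay between -0.089 and -0.018; that of Cry2KO lay between 0.053 and 0.093 and that of WT between 0.078 and 0.12.

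Counts of male-high members without overlap moved to 44 in WT at the 4 shared times, to 20 in Cry2KO with an FPKM minimum of 10, which leaves 229 members (background 2.39%), and to 45 in ClkKO with quantile normalization (background 2.37%) and 45 with median-of-ratios scaling. Counts of female-high ones moved to 14 in WT at the 4 shared times and, among the 229 members of the minimum of 10, to 4 in WT, 8 in Cry2KO and 8 in ClkKO (background 0.429%, 1.96% and 3.96%). Without single libraries the male-high counts were 14 to 19, 34 to 52 and 8 to 35 in WT, Cry2KO and ClkKO. Their backgrounds were 0.692% to 0.989%, 3.12% to 6.66% and 0.576% to 1.70%. The female-high counts were 7 to 10, 13 to 19 and 15 to 30, with backgrounds of 0.403% to 0.605%, 2.67% to 3.995% and 4.19% to 13.7%. Fewer libraries thus make non-overlap more frequent among all genes too, and the Cry2KO count of 52 came without the male library at ZT4.

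Members called in level numbered 10 (quantile normalization, background 5.59%) and 7 (median-of-ratios scaling, background 5.27%) in Cry2KO. In ClkKO they numbered 5 (median-of-ratios scaling, background 2.82%). Without single libraries they numbered 8 to 29 in Cry2KO (background 5.99% to 15.6%) and 0 to 20 in ClkKO (background 1.498% to 5.004%). Median-of-ratios scaling moved the calls over all genes in Cry2KO from 109 higher and 881 lower to 211 and 338. Rhythmic members numbered 1 with no filter on level (background 0.532%), 1 with time as a factor (background 0.355%) and 1 to 4 without single libraries (background 0.538% to 1.52%). Interactions stayed at 0 members; of all genes 1 was called in ClkKO without the variance trend, and 1 in Cry2KO without either WT library at ZT10 or either at ZT22. The cause of these changes was not tested. The numbers do not pair the libraries (correlations of deviations between genotypes at 1 time from -0.038 to 0.152). A replicate block, which is the sex, gave 24 members in Cry2KO (7.67%, background 10.3%) and 13 in ClkKO (4.15%, background 4.22%). It gave 3 rhythmic members (0.958%, background 0.922%).

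Of 313 members 106 had a median under 50 reads, and a library is 1 pool of 3 brains per genotype, time and sex.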
